A study of Mus musculus with 11 samples.

Results

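Myb and its neighbour Ahi1 lie in a stretch of mouse chromosome 10 that is densely acetylated in thymocytes. The window examined here runs from 20700000 to 20960000 of the mouse build mm9 (chr10:20700000-20960000), and every peak of the 6 deposited lists that overlaps it was taken. It held 191 of the 120616 peaks in all, of which 61 came from H3K27ac in KO libraries, 67 from H3K27ac in WT libraries and 63 from Smc1a in WT libraries. H3K27ac, histone H3 acetylated on lysine 27, marks active promoters and enhancers, and Smc1a belongs to the core of cohesin, a ring-shaped complex.

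The cells were CD4+ CD8+ double positive (DP) thymocytes, sorted by flow cytometry from mice aged 6 weeks. KO stands for Rad21 -/- cells, in which a floxed Rad21 allele had been removed by Cre under the control of Cd4, so that the loss dates from the stage at which Cd4 is switched on. WT stands for cells of control littermates, labelled as wild type; whether they carried the floxed allele or the transgene is not given in the sources used here. H3K27ac was profiled in 2 KO and 2 WT libraries, and Smc1a in 2 WT libraries alone. No label states that the libraries of one genotype were prepared from different animals, so p-values measure the spread between these samples, which may be technical. The lists hold no measure of Rad21 itself, and the labelled cell type was not checked against marker genes.

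Myb encodes c-Myb, a transcription factor that hematopoietic progenitors need and that DP thymocytes use for survival and for recombination of the T cell receptor alpha locus. Ahi1 encodes jouberin, a protein of the primary cilium whose loss causes Joubert syndrome in humans, and its region is named after a site of retroviral insertion in mouse leukaemias that also affects Myb. In erythroid cells of mice and humans, distal enhancers between Myb and Hbs1l are known to contact the Myb promoter. Cohesin, closed by Rad21, extrudes chromatin loops and can bring such elements together.

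In RefSeq's annotation of the later build GRCm38.p6 the protein-coding genes follow in the order Pde7b, Ahi1, Myb, Hbs1l and Aldh8a1, with Ahi1 read on the plus strand and Myb on the minus strand. The peaks are on mm9, and no mm9 annotation was used, so no peak was assigned to a promoter, exon or intron of either gene. Both genes matched an entry in the RefSeq promoter table of GRCm38.p6. The 250 bases before each gene's outermost start are shown because these genes give the locus its name; capitals mark GC boxes, GGGCGG on either strand.
Myb: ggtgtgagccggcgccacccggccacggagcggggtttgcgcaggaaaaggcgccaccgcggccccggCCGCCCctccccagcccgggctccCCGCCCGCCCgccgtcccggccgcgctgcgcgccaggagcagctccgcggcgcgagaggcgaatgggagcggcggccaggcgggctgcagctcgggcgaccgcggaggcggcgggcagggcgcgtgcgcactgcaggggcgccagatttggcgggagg
Ahi1: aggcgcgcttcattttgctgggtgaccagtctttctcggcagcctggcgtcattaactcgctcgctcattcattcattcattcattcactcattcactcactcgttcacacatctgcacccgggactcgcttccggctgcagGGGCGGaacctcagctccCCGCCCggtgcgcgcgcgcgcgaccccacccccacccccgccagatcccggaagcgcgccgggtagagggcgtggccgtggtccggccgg

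The Myb sequence was 81.2% G and C with 40 CpG dinucleotides, and the Ahi1 sequence 65.6% with 28, against medians of 52.4% and 6 over the 32851 promoters of the table. GC boxes occurred 3 times in the Myb sequence, of which 2 overlap, and 2 times in that of Ahi1, while 32.7% of all promoters held at least 1. Each of these genes had 1 match to CCCTC, a core of the CTCF motif, on either strand, and 60.5% of all promoters had one. The Myb sequence held no TATAAA, no TGTGGT (a Runx core), no CANNTG (an E box) and no AACNG (the Myb core), which 12.4%, 14%, 66.2% and 74.2% of promoters held. The Ahi1 sequence differed from it in this set by 1 E box. Such matches describe these letters and are not binding sites.

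Less of the window was called acetylated in KO than in WT libraries. KO replicates 1 and 2 had 137736 and 117485 bp of the window under a peak (53.0% and 45.2% of it), against 146382 and 152415 bp in WT replicates 1 and 2 (56.3% and 58.6%). Both KO libraries thus lay below both WT libraries, with means of 127610.5 ± 14319.6 bp in KO and 149398.5 ± 4266.0 bp in WT (SD, n = 2 each). The difference of -21788 bp reached the smallest p that 2 libraries against 2 allow (two-sided exact permutation test, p = 0.333), so it cannot pass a threshold of 0.05. Without KO replicate 2 the difference was -11662.5 bp. In bulk chromatin, fewer cells with acetylation at a place and less acetylation per cell cannot be told apart.

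Over the whole genome the genotypes overlapped in covered length, with 52.7 and 47.6 Mb in KO, against 56.3 and 45.6 Mb in WT. As a share of that total the window held 0.262% and 0.247% in KO, against 0.260% and 0.334% in WT, so here KO replicate 1 lay between the WT libraries (KO minus WT -0.0429 percentage points, exact permutation test, p = 0.667). That difference shrank to -0.00585 without WT replicate 2, the library with the shortest total, and was -0.0800 without WT replicate 1.

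Set beside the other 260 kb windows of the genome, tiled from the first base of each chromosome, the window was the densest. None of 4864 tiled windows with acetylation had a mean covered length as great, in KO or in WT, and the medians over them were 6304.75 bp in KO and 5693.25 bp in WT. The tiled windows were not centred on acetylated stretches as this one is, which favours it. Both KO libraries lay below both WT libraries in 13.4% of tiled windows and above them in 23.9%. In bp, a KO minus WT difference at least as negative was seen in 21 of the 4864, or 20 after scaling to each library's total, but a densely covered window can differ by more bp than the others. As a ratio the difference was ordinary: KO over WT was 0.854 in this window, against a median of 0.834 over the 95 tiled windows with a mean coverage of at least 50 kb, of which 52 had a ratio as low or lower.

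Peaks were nearly as many in KO as in WT. The window held 32 and 29 peaks in KO, against 34 and 33 in WT (KO minus WT -3, exact permutation test, p = 0.333, and -1.5 without KO replicate 2). When peaks within 1000 bp of each other were joined, the KO libraries had more pieces than the WT libraries (difference 3). The longest single peak was 11023 and 20620 bp in KO, against 11129 and 15290 bp in WT (exact permutation test, p = 1), and the sign of this difference of 2612 bp depended on KO replicate 2, without which it was -2186.5 bp. It was 7410.5 bp without KO replicate 1, 531.5 bp without WT replicate 1 and 4692.5 bp without WT replicate 2. The longest peaks did not lie at 1 place. In KO replicate 1 and WT replicate 1 they crossed the window end and were counted whole. In KO replicate 2 and WT replicate 2 they were chr10:20801571-20822190 and chr10:20801581-20816870.

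**Figure D1:**
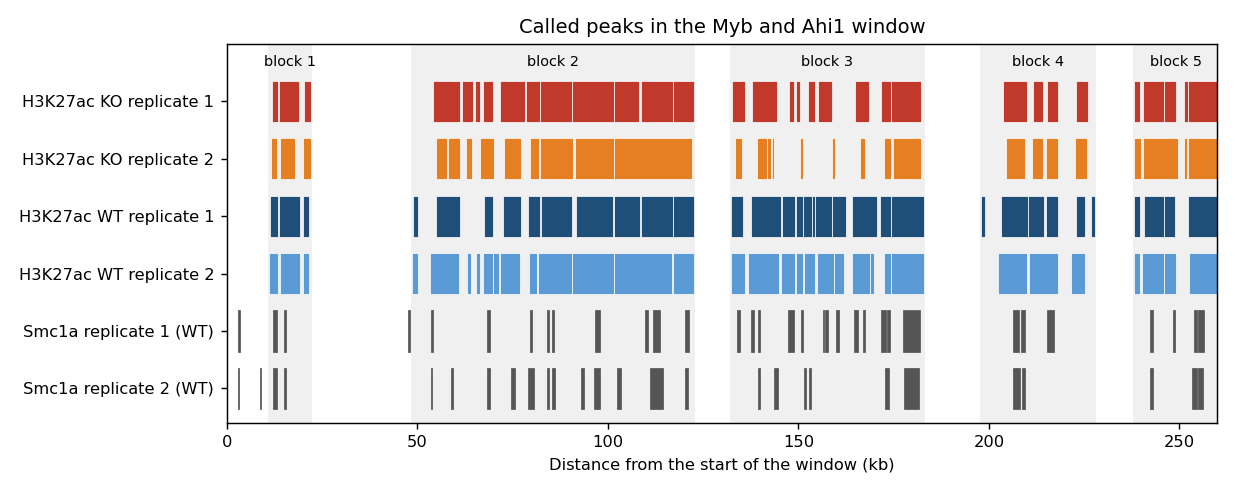
Called peaks along the window, with the distance from its start in kb on the horizontal axis, 1 row per library and the blocks of the text in grey. The row of KO replicate 2 is nearly empty through the middle of block 3, where the WT rows are almost filled, while the right part of block 2 is filled in all 4 H3K27ac rows.

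The peaks of the 4 H3K27ac libraries merged into 29 regions with a median length of 4464 bp, against 2076 bp over the 24430 merged regions of the genome. Of the 29, 21 were held by all 4 libraries (72.4%, background 49.6%). One region was called in both WT and neither KO library (background 2.33%), and one in both KO and neither WT library (background 2.82%). The WT-only region, chr10:20748715-20750107, had scores of 64.68 and 94.04 in WT; the score is the authors' value from their peak caller, whose lowest value was 50 or 50.01 in each list. The region found in KO alone, chr10:20951197-20952315, had scores of 58.63 and 66.07. Both were thus weak calls, and their numbers rested on single libraries: WT-only regions numbered 3 without KO replicate 1 or without WT replicate 2 and 2 without WT replicate 1, and KO-only regions numbered 2 without WT replicate 2. The backgrounds above are for all 4 libraries and do not apply to these counts. All 14 regions of at least 5 kb were called in every library, as were 97.0% of such regions in the genome.

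Coverage differed more than presence. In 13 of the 29 regions both KO libraries covered less than both WT libraries (44.8%, background 15.9%), and in 3 both covered more (10.3%, background 17.0%). Regions here were long, and among those of at least 5 kb lower KO coverage was seen in 8 of 14 (57.1%) in the window, against 37.9% of all such regions. The median KO minus WT difference was -440 bp over the 29 regions and -8 bp over all regions, but among those of at least 5 kb it was -583.75 bp in the window and -447.25 bp genome-wide. Lower KO coverage of long regions was thus common throughout the lists, and the share in the window is to be read against it.

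To describe where along the locus the libraries parted, regions within 5 kb of each other were stitched, which gave 5 blocks, numbered here by position. Blocks 1, 3 and 4 were covered less by both KO libraries than by either WT library. Block 5 was covered more in its part within the window, and block 2 overlapped between the genotypes. Over all 17320 such blocks of the genome, taken whole, 14.7% were lower and 20.3% higher in that sense. Over the 519 blocks of at least 20 kb 49.7% were lower and 5.59% higher.

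**Figure D2:**
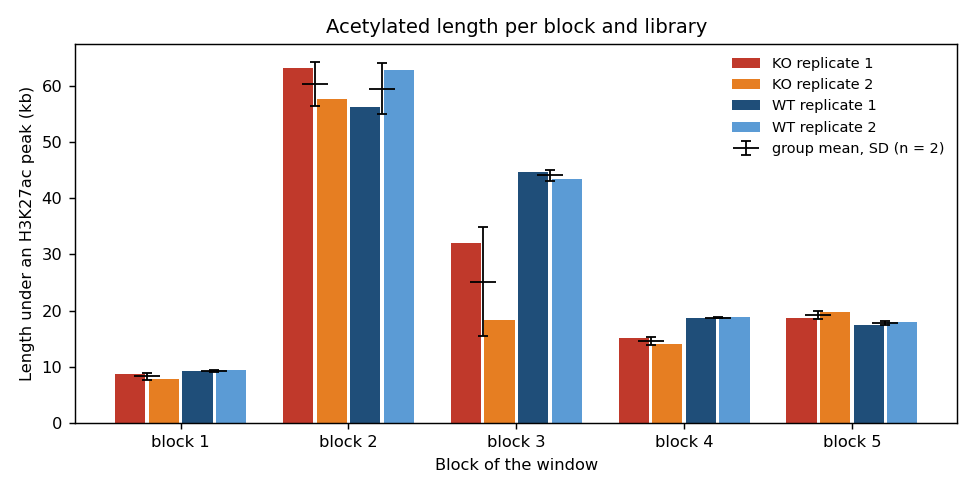
Length under an H3K27ac peak in kb for each block and library, with bars for single libraries and black marks for group means with their SD (n = 2 each). In block 3 the KO bars stand for 32079 and 18246 bp and the WT bars for 44774 and 43410 bp, whereas in block 2 the bars of the genotypes overlap.

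Block 3, chr10:20832269-20882923, held most of the difference. KO libraries covered 32079 and 18246 bp of its 50655 bp (63.3% and 36%), against 44774 and 43410 bp in WT libraries (88.4% and 85.7%). The WT libraries differed by little and the KO libraries by much, with means of 25162.5 ± 9781.4 bp in KO and 44092.0 ± 964.5 bp in WT (SD, n = 2 each). The difference of -18929.5 bp (exact permutation test, p = 0.333, the smallest possible) made up 86.9% of that of the whole window. The window value is a net one, in which block 2 (820 bp) and block 5 (1473.5 bp) had the opposite sign. The block 3 difference was -12013 bp without KO replicate 2 and -25846 bp without KO replicate 1. The ratio of KO to WT coverage was 0.571, and 26 of the 519 long blocks (5.01%) had a ratio as low or lower, around a median of 0.869.

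**Figure D3:**
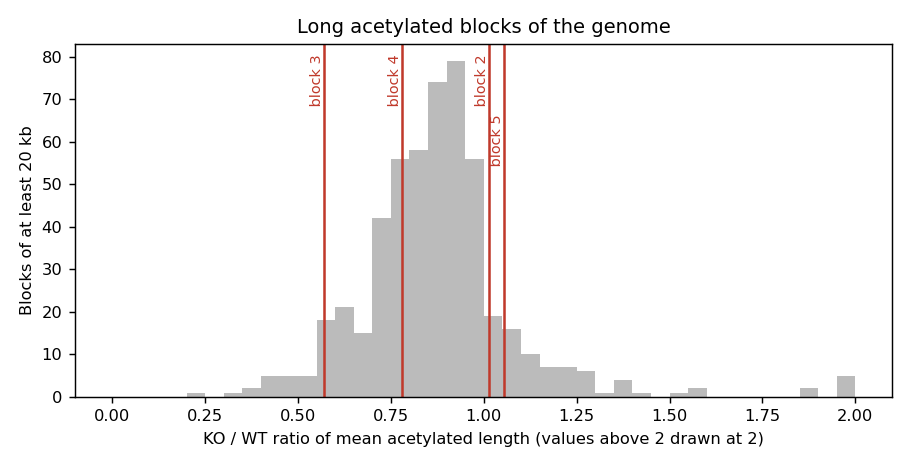
Ratio of KO to WT mean acetylated length for the 519 blocks of at least 20 kb in the genome, with lines for the 4 such blocks of the window. Block 3 lies at 0.571, in the low tail, and blocks 2 and 5 at 1.01 and 1.05, above the median of 0.869. Block 5 is taken whole here, past the window end, and the ratio of its part in the window was 1.08.

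Of the 9 regions of block 3, 7 were covered less in both KO libraries and none more. Over the genome 15.9% of all regions were lower and 17.0% higher. Among those of at least 5 kb 37.9% were lower and 9.67% higher, but the 9 regions are of all lengths. They also make up the coverage by which block 3 stood out, so their count is not separate support for its difference. The widest gap lay in chr10:20854428-20862406, where KO libraries covered 3541 and 866 bp and WT libraries 7881 and 7086 bp. Its best scores were 277.14 and 477.08 in the WT lists and 82.57 and 82.44 in the KO lists. The lists start at 50 or 50.01, so the KO calls there were weak. Within their own lists the best peaks of the region stood at score percentiles 16.0 and 16.7 in KO and 50.7 and 69.0 in WT. In chr10:20864038-20870538, KO coverage was 3918 and 1378 bp, against 6412 and 5649 bp in WT. A pair of stretches had no peak at all in KO replicate 2: chr10:20845559-20849124 had 1535 bp in KO replicate 1 and 3435 and 3466 bp in WT, and chr10:20851344-20854403 had 1678 bp in KO replicate 1 and 2990 and 3000 bp in WT. These are missing calls, not measured absences of acetylation. In all 4 cases KO replicate 2 was the lowest library and KO replicate 1 lay between it and WT.

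At the left of the block, chr10:20836710-20845325 was called as 1 peak of 6661 bp in KO replicate 1 and as 3 peaks with 4201 bp in KO replicate 2, against 1 peak each of 7734 and 8173 bp in WT. The short region chr10:20849277-20851322 was covered over 905 and 773 bp in KO and 1900 and 2046 bp in WT. The first region of the block, chr10:20832269-20836017, overlapped between genotypes, with 3517 and 1774 bp in KO, against 3065 and 3730 bp in WT.

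The highest scores of block 3 lay at its right end. The region chr10:20874355-20882923 was 1 peak in every library, with 7860 and 7425 bp in KO, against 8506 and 8467 bp in WT, and its score was 3100, a value at which many peaks are tied, in all 4 lists. Beside it, chr10:20871455-20874345 was covered over 2464 and 1829 bp in KO and 2851 and 1793 bp in WT, so the groups overlapped there. The KO minus WT difference of the strongest region was -844 bp, against -5280 bp in the region with the widest gap.

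Counted in 10 kb bins, whose edges are fixed but whose values still come from the called peaks, 24 of the 26 bins held acetylation. Both KO libraries lay below both WT libraries in 10 of the 24 (41.7%, background 16.4%) and above them in 5 (20.8%, background 18.4%). The background takes in all 24659 acetylated bins and was not matched for coverage, and this window is densely covered. Among merged regions of at least 5 kb in the genome the lower share was 37.9%, against 15.9% of all regions. The bin from 20850001 to 20860000 had 5638 and 1639 bp in KO, against 9769 and 9493 bp in WT. The next, from 20860001 to 20870000, had 3918 and 1378 bp in KO, against 8280 and 7564 bp in WT. Bins of block 2 between 20780001 and 20820000 were almost wholly covered in every library, from 8881 to 10000 bp.

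**Figure D4:**
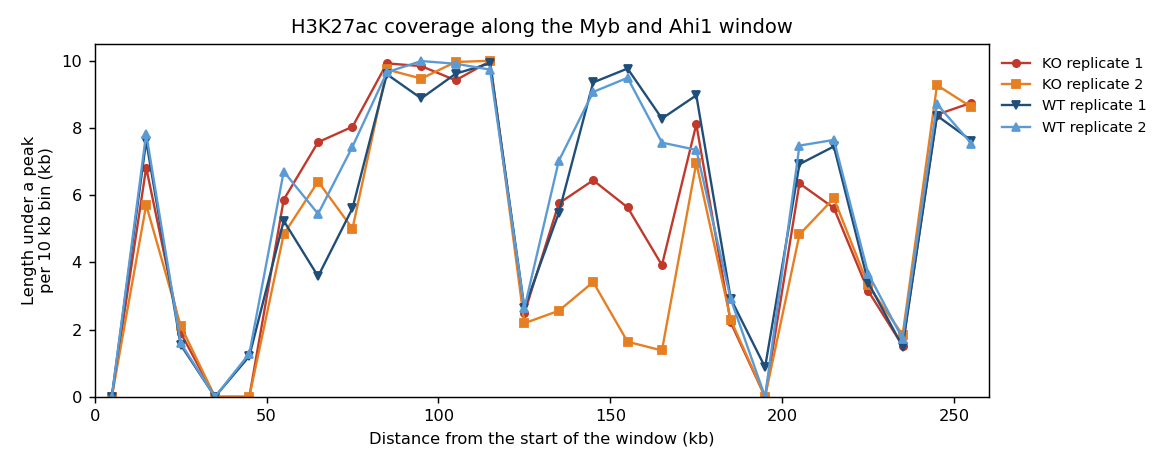
H3K27ac coverage in kb per 10 kb bin against the distance from the window start, 1 line per library. The KO lines drop below the WT lines between about 140 and 170 kb, and all 4 lines run together near 10 kb from 80 to 120 kb.

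Block 2, chr10:20748715-20822639, was the longest, with 73925 bp. It was covered over 63142 and 57613 bp in KO, against 56301 and 62814 bp in WT, and the means of 60377.5 ± 3909.6 bp in KO and 59557.5 ± 4605.4 bp in WT (SD, n = 2 each) differed by less than the spread between replicates (exact permutation test, p = 0.667). Its core was 2 regions, chr10:20778637-20801534 and chr10:20801567-20822639. The first was covered over 22662 and 21264 bp in KO and 20792 and 21904 bp in WT. The second was covered over 20362 and 20620 bp in KO and 20702 and 20794 bp in WT, so the groups were apart by less than the spread within KO. On the left of the block, chr10:20761846-20764535 was covered more in KO, with 2690 and 1556 bp, against 0 and 890 bp in WT. In chr10:20771645-20778317 the groups overlapped in length, with 6673 and 4399 bp in KO and 4776 and 5294 bp in WT.

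Block 4, chr10:20898035-20927799, was covered over 15117 and 14055 bp in KO, against 18652 and 18782 bp in WT, with means of 14586.0 ± 750.9 bp in KO and 18717.0 ± 91.9 bp in WT (SD, n = 2 each; exact permutation test, p = 0.333, the smallest possible). Its strongest region, chr10:20902525-20910303, had 6467 and 4830 bp in KO and 7226 and 7613 bp in WT, with scores of 3100 in both KO lists and 3100 and 3177.95 in the WT lists. The next region, chr10:20910355-20918147, had 5502 and 5908 bp in KO, against 7148 and 7508 bp in WT. A pair of short regions at the edges, of 880 and 919 bp, was called in WT replicate 1 alone. Their scores of 57.05 and 57.13 were near the lowest of that list, 50.01. They set both ends of the block, and their KO minus WT differences of -440 and -459.5 bp are part of its -4131 bp. The ratio of KO to WT coverage was 0.779, and 148 of the 519 long blocks (28.5%) had one as low or lower.

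The outer blocks showed smaller differences, of opposite sign. Block 1, chr10:20710997-20722129, was covered over 8732 and 7831 bp in KO, against 9169 and 9436 bp in WT. Block 5 begins at 20938062 and runs past the window end, and its part in the window was covered over 18666 and 19740 bp in KO, against 17486 and 17973 bp in WT. The short KO-only region added 1004.5 bp to the mean difference of 1473.5 bp, and chr10:20940289-20949645 had 8398 and 9274 bp in KO, against 8366 and 8709 bp in WT. Scaled to each library's total, the groups overlapped in both of these blocks, while blocks 3 and 4 stayed lower in both KO libraries. For each of these blocks the exact permutation test gave p = 0.333, the smallest possible.

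Peaks were often parted by narrow breaks, and some of them recurred at the same place. Breaks of at most 500 bp occurred at 26 places, 1 of them in all 4 libraries, 5 in 3 libraries, 6 in 2 and 14 in a single library. They numbered 9 and 7 in KO, against 14 and 15 in WT. A break needs called peaks on both sides at most 500 bp apart, so a library with missing or shorter peaks can hold fewer. The counts thus do not rank the genotypes by how broken up their acetylation was. The break shared by all lay within chr10:20801477-20801580, between the core regions of block 2, and was 40 and 36 bp wide in KO and 90 and 88 bp wide in WT. Another, at the left border of the strongest region of block 3, was 84 bp wide in KO replicate 1 and 112 and 99 bp wide in WT. In KO replicate 2 the gap there was wider than 500 bp and so was not counted. Its peaks ended at 20874316 and resumed at 20874868.

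Cohesin was mapped in WT cells, so Smc1a has no genotype comparison. Its 35 and 28 peaks in the window merged into 42 sites, of which 20 were called in both replicates (47.6%, against 52.8% of all 28128 sites of the lists). The median over tiled 260 kb windows was 2 sites of both replicates, and 4 of the 4864 windows had 20 or more. Of the 20 sites, 18 lay under a peak of all 4 H3K27ac libraries, while over all 14848 sites of both replicates the background was 19.3%. Acetylation itself covered 45.2% to 58.6% of the window, depending on the library. Of the 29 acetylated regions, 12 held such a site, and all 12 were called in all 4 libraries (background 72.4% of regions with such a site), as were 9 of the other 17 (background 46.0% of regions without one). Both KO libraries covered less than both WT libraries in 6 of the 12 (background 30.1%) and in 7 of the 17 (background 13.5%). These backgrounds were not matched for length. Regions of the window had a median of 4464 bp, against 2076 bp over the genome, and lower KO coverage was commoner in long regions.

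**Figure D5:**
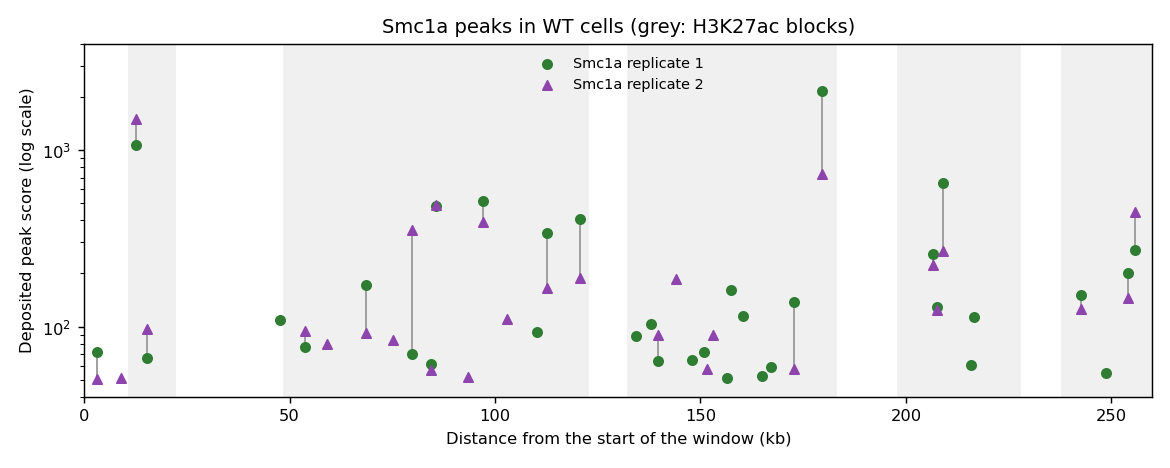
Deposited scores of the Smc1a peaks, on a log axis, against the distance of each site from the window start, with lines joining the replicates where both called the site. A site near 180 kb reached 2172.18 in replicate 1, a site near 13 kb reached 1497.50 in replicate 2, and the middle of block 3 holds mostly sites of a single replicate with scores under 200.

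The widest Smc1a site, chr10:20877523-20881813, lay within the strongest acetylated region of block 3. Its scores were 2172.18 in replicate 1, where it ranked 25 of 25484 peaks, and 730.02 in replicate 2, where it ranked 382 of 17726. By width it ranked 41 in replicate 1 and 50 in replicate 2. The other strong site, chr10:20712236-20713219 in block 1, had scores of 1068.51 (rank 711) and 1497.50 (rank 30). Both sites were acetylated over their whole length in all 4 libraries.

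Block 2 held 8 sites of both replicates, the most of any block. Among them chr10:20811081-20814474 was 3394 bp wide with scores of 340.45 and 165.18, and chr10:20796466-20797911 had scores of 514.24 and 392.36. At chr10:20753528-20754106 the site was under a peak of WT replicate 2 alone, and the nearest peak was 27 and 767 bp away in KO and 763 bp away in WT replicate 1. Blocks 4 and 5 held 3 sites each, all under peaks of every library, with the highest scores at chr10:20908490-20909508 (649.57 and 269.97) and chr10:20954827-20956565 (271.52 and 443.99). The 1 site of both replicates outside the blocks, chr10:20702812-20703369, had scores of 71.78 and 50.71 and lay 8449 and 8315 bp from the nearest peak in KO and 8052 and 7627 bp from it in WT.

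Block 3 held 3 sites of both replicates but 12 called in a single replicate, 9 of them in replicate 1. All 12 lay under a peak in both WT libraries, while 9 lay under a peak of KO replicate 1 and 4 under one of KO replicate 2. Peaks covered 88.4% and 85.7% of the block in WT replicates 1 and 2, and 63.3% and 36% in KO replicates 1 and 2. The counts fall in the same order as that coverage and are not a separate result about Smc1a. Whether they differ from what the coverage alone would give was not tested. The 3 sites of both replicates lay under a peak in every library. The highest score among the 12 was 185.04. The number of single-replicate sites elsewhere in the window was 10.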

How the data were processed

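Per the submitters' processing notes, alignment to mm9 used Bowtie 0.12.8. The peak names are those of MACS and each list belongs to 1 library, so calls were not pooled. For MACS, its version, its settings and the input used are not given, and the 5 input libraries were not analysed here. The deposited files list peak borders and a score per peak. The score is the authors' own value and was used to describe, rank or filter peaks within a list. Scores of different lists are printed side by side in places, but they were not tested against each other. The files hold no reads, so depth is unknown.

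Peaks were taken where they overlapped the window by at least 1 bp, and 4 peaks that cross its end were counted whole in widths and cut at the border in covered lengths. Overlapping or touching H3K27ac peaks were merged into regions, and regions within 5 kb were stitched into blocks. A region, block, bin or window was called lower where both KO libraries covered less than both WT libraries, and higher in the reverse case; the background is the share so called over the genome. Values of the 4 libraries were tested by exact permutation (two-sided, smallest possible p 0.333). No 2 libraries of a target shared an identical peak. Coordinates are counted from 1. Python 3.11.15, numpy 2.4.6 and pandas 2.3.3 were used, and the interval functions were tested on simulated data.

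The window, its genes and the tests were chosen with earlier results of these data known, and the blocks after seeing the peaks. Every peak of the window is a member. The plan was to describe with all values the regions of at least 5 kb, those missing from a library and those with a Smc1a site. Not all of these are given above, and others were added after their values were seen. Left out were chr10:20710997-20713530 and chr10:20713693-20719224, both lower in both KO libraries. Also left out were chr10:20753402-20761244, chr10:20765248-20766352, chr10:20766383-20771389 and chr10:20952319-20964445, where the groups overlapped. The planned marker genes and neighbouring genes were not analysed, since no mm9 annotation was used.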

Additional observations from a re-analysis of the deposited data

How the results depend on the processing

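Of 83 alternatives over 16 results, 70 left the direction and the side of the threshold as they were, which no test of these libraries can pass, or moved a count by no more than 1.5 times and a value by less than the replicate SD. The sign reversed in 2: the difference in peak number was 3 with peaks within 1000 bp joined, against -3, and the longest peak differed by -2186.5 bp without KO replicate 2, against 2612 bp. Leaving out 1 library moved the covered length from -31913.5 to -11662.5 bp, the share from -0.0800 to -0.00585 points, the peak number from -4.5 to -1.5 and the longest peak from -2186.5 to 7410.5 bp. Regions called in both WT and neither KO library then numbered 1 to 3, and those of the reverse class 1 to 2. WT-only regions numbered 2 with the upper 75% of scores and 4 where a library had to cover at least 50% of the region, and KO-only regions numbered 2 in the second case. Bins higher in KO were 12.5% after scaling to total covered length, against 20.8%. Genome-wide shares under these changed settings are not given here, so these counts have no matched background and are not read as a result. Smc1a sites numbered 13 with the upper 75% of scores and 35 in replicate 1 alone, against 20, and 32 peaks of replicate 1 lay under a peak of both WT libraries, against 18 sites. The cause of these shifts was not tested. The difference of block 3, added after seeing the data, ran from -25846 to -12013 bp with a library left out, was -23407 bp with the upper 75% of scores and -23222 bp with equal numbers of peaks.

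The replicate numbers of KO and WT libraries are shared in the labels, but nothing says that they pair mice, and the differences between replicates 1 and 2 were uncorrelated between genotypes (r = 0.0283 over 24430 regions). With the replicate number as a block the difference in covered length was -21788 bp (exact sign-flip test over 2 pairs, p = 0.5, the smallest possible), that in share -0.0429 points, that in peaks -3 and that in longest peak 2612 bp. Neither form of the test can pass 0.05 at this size, so the block says nothing about stability. With 2 libraries per group and no reads, a difference in peak width cannot be told apart from one in depth or enrichment.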
